A study of Mus musculus with 23 samples.

Results

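The type I interferon stimulated genes are 42 genes that cells switch on after type I interferon, or after their own sensors have detected foreign nucleic acid. They were taken by symbol (GENCODE mouse release 21) from a table of raw RNA-seq counts for 41388 Ensembl genes. All 42 were in the table, and all 42 passed the filter on low counts that left 17148 genes for testing. Lungs of 23 mice (male, Balb/c) in 5 groups gave 1 library each. The control group breathed clean air (n = 3). The other 20 mice breathed an aerosol of LPS at 0.21 mg/ml, the endotoxin of Gram-negative bacteria, for 10 min on each of 3 days. At 1 h after each exposure, mice received an intraperitoneal injection, with lungs taken 6 h after the last one. The LPS group received saline after LPS (n = 5), and the others received 4 mg/kg of human alpha1-antitrypsin (AAT), the main plasma inhibitor of neutrophil elastase, in its native form (LPS+nAAT, n = 5), oxidized (LPS+oxAAT, n = 5) or recombinant (LPS+recAAT, n = 5). Whole lung was sampled after repeated exposure at a single time point, and AAT without LPS was not analysed here.

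Type I interferons bind the receptor made of Ifnar1 and Ifnar2, whose kinases Jak1 and Tyk2 phosphorylate transcription factors such as Stat2. Stat2 and Irf9 are subunits of the factor ISGF3, which binds the interferon-stimulated response element (ISRE) in the promoters of its target genes. LPS reaches the same genes in another way: Tlr4 signals through the adaptor Ticam1 (TRIF) to Irf3, which drives Ifnb1 and, directly, several of the 42 genes. Their products sense viral RNA, block translation, degrade RNA, hinder virus entry and release, and attach the ubiquitin-like protein Isg15 to other proteins.

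Promoters were searched for the ISRE core GAAANNGAAA on both strands, because it is the sequence that ISGF3 binds. RefSeq promoter windows (GRCm38.p6, 250 bases before to 50 after the transcription start) were found for 32 of the 42 genes. The core was present in 16 of those 32 (50%), against 3.99% of the 27025 genes with a window of the same length. The longer form GAAANNGAAACT, which contains the core, was present in 9 of 32 (28.1%), against 0.303% of all genes with a window. A match is a description of the letters and does not show binding. The 4 stretches printed here belong to the genes with the smallest adjusted p-values among those called in any comparison and holding a match. Of the other called genes, Cmpk2, Ifit2 and Lgals3bp had windows without the core, and Zbp1 and Mx1 had no window. Capitals mark the core on either strand, and each stretch reads 5′ to 3′ along its gene's strand.
Isg15: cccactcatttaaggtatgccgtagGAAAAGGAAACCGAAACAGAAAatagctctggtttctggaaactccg
Rsad2: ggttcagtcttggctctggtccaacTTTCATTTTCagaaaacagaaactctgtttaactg
Ifit1: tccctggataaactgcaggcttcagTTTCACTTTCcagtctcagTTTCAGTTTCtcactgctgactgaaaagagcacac
Ifit3: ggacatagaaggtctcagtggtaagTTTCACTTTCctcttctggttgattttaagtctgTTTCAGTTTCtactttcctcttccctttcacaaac
The Isg15 stretch lies at chr4:156200850-156200921 on the minus strand (positions -103 to -32 from the start) and holds 3 overlapping matches. For Rsad2 it lies at chr12:26456538-26456597 on the minus strand (positions -145 to -86 from the start), with 1 match. For Ifit1 it lies at chr19:34640760-34640838 on the plus strand (positions -129 to -51 from the start), and for Ifit3 at chr19:34583348-34583441 on the plus strand (positions -181 to -88 from the start), with 2 matches each. All 4 stretches are upstream of the first exon of their gene.

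Gene counts per library ran from 14.8 M to 47.9 M (M, mega), with a median of 28.7 M. The libraries also split in a way the labels give no name for. The mitochondrial genes mt-Nd6 and mt-Nd5 lie on opposite strands, and mt-Nd6 counts were 0.338% to 1.14% of mt-Nd5 counts in 15 libraries (called the first set) but 3.39% to 4.50% in the other 8 (the second set). The first set held every air, LPS and LPS+nAAT mouse together with oxAAT mice 5101 and 5102. The second set held oxAAT mice 5103, 5104 and 5105 and every LPS+recAAT mouse. LPS+recAAT therefore shares its set with no air or LPS library. Apart from the sets, LPS+nAAT mouse 4104 and LPS+oxAAT mouse 5105 stood above the other mice of their groups in most of the 42 genes, so results that use these groups are also given without both. No libraries within a group agreed within sampling noise. Marker sums showed lung in every library, with alveolar type 2 genes at 25047 to 34069 CPM, and liver genes at 13.3 CPM or less. Heart muscle genes varied widely between libraries, from 33.3 CPM in LPS+nAAT to 611 CPM in LPS+oxAAT, so the tissue sampled was not uniform in this respect.

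As a single score, the 42 genes were higher in every group that breathed LPS than in air. The score is the mean over the 42 genes of log2 CPM (gene counts per M counts, TMM-scaled, prior count of 2) in a library. In the air mice it was 4.73, 4.97 and 4.80 (mean 4.83 ± 0.12, SD), in order of mouse number (2101, 2102, 2105). In the LPS mice (1101 to 1105) it was 5.01, 5.07, 5.16, 5.16 and 5.04 (mean 5.09 ± 0.07). In the LPS+nAAT mice (4101 to 4105) it was 5.03, 5.19, 4.96, 5.56 and 5.10 (mean 5.17 ± 0.23). The LPS+nAAT mouse 4103 thus lay below the highest air mouse, and every other LPS-exposed mouse lay above all 3 air mice. The LPS+oxAAT mice (5101 to 5105) scored 5.10, 5.22, 5.21, 5.04 and 5.64 (mean 5.24 ± 0.24), and the LPS+recAAT mice (6101 to 6105) scored 5.39, 5.08, 5.17, 5.06 and 5.37 (mean 5.22 ± 0.16). Over all 17148 tested genes the same mean moved little, with group means of 3.70 to 3.76. The 4 LPS-exposed groups overlapped each other in score. Without mice 4104 and 5105, the means were 5.07 ± 0.10 in LPS+nAAT and 5.14 ± 0.09 in LPS+oxAAT. The score is a description, and no test was made on it. In whole lung, fewer cells of a type and less RNA per cell cannot be told apart.

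The 42 genes spanned a wide range of levels. Compared per length, as mean CPM per kb of exon in the air mice, Ifitm3 was highest at 326 ± 53.8 (SD, n = 3), followed by Ifi27l2a, a mitochondrial and nuclear membrane protein, at 63.5 ± 24.3, and Bst2 at 56.5 ± 9.22. The intervals of 1 SD around Ifi27l2a and Bst2 overlapped. Lgals3bp (39.8 ± 6.55), Ifi35 (31.7 ± 4.37) and Ifit3 (29.6 ± 1.73) came next, and Isg15 was at 10.7 ± 2.36. At the low end were Mx2 (1.66 ± 0.181), Ddx60 (1.62 ± 0.190), Mx1 (1.09 ± 0.118) and Oas3 (0.677 ± 0.188). All 42 genes had transcripts in every air mouse, the lowest being 3.55 CPM for Oas3 in mouse 2105.

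**Figure D1:**
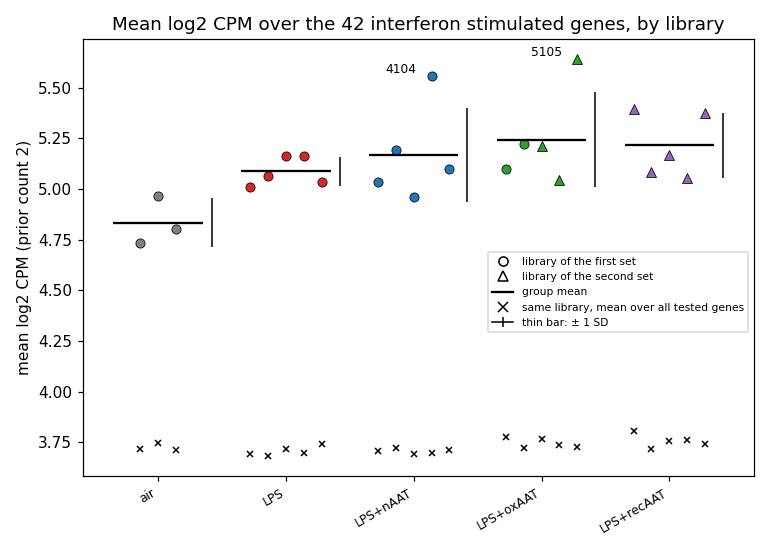
Mean log2 CPM over the 42 genes (filled symbols) and over all tested genes (crosses) for each of the 23 libraries, by group, with circles for the first set, triangles for the second, horizontal lines for group means and thin vertical bars for ± 1 SD. Air mice sit at 4.73 to 4.97, and mice 4104 and 5105 are the highest at 5.56 and 5.64.

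Between LPS and air, 1 of the 42 genes was called, Isg15, which was higher after LPS by 1.09 ± 0.27 (log2 fold change ± SE). A gene is called here at an adjusted p under 0.05 in edgeR's quasi-likelihood test over all 17148 tested genes, which called 2.71% of them higher and 1.68% lower in this comparison. No member was called lower, so the share of the 42 that was called is close to the background. At an unadjusted p under 0.05, 15 of the 42 were higher and none lower, where 8.37% of all tested genes were higher. DESeq2's Wald test called 5, Ifit1, Ifit3, Isg15, Mx1 and Zbp1, all higher, where it called 4.18% of its tested genes higher. The log2 fold change was positive in 36 of 42 genes with a median of 0.19, against 48.3% of all tested genes with a median of -0.01. In 12 of the 42, every LPS mouse was above every air mouse, and that held for 5.31% of all tested genes. Besides Isg15, these 12 were Ifit3, Zbp1, Ifit1, Mx1, Oasl1, Lgals3bp, Cmpk2, Irf7, Oas1a, Mx2 and Ifit3b. In 4 genes (Isg15, Ifit1, Ifit3 and Cmpk2) all 20 LPS-exposed mice lay above all air mice, against 2.14% of tested genes, and in no gene of the 42 did all 20 lie below, against 0.735%.

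Against the same 3 air mice, more of the 42 genes were called in the groups given AAT. That order did not hold when each comparison was fitted with only its own groups, where LPS had 5 calls, LPS+nAAT 5, LPS+oxAAT 3 and LPS+recAAT 10. In LPS+nAAT, 5 rose (Isg15, Ifit1, Ifit3, Lgals3bp and Zbp1), where 3.95% of all tested genes were called higher and 1.67% lower. In LPS+oxAAT, 6 rose (Ifit1, Cmpk2, Isg15, Rsad2, Zbp1 and Ifit3), where 2.72% of all genes were called higher and 1.04% lower. In LPS+recAAT, 7 rose (Isg15, Rsad2, Ifit1, Cmpk2, Ifit3, Mx1 and Zbp1), where 4.21% of all genes were called higher and 2.62% lower. None of the 42 was called lower in any of these comparisons. At an unadjusted p under 0.05 the higher genes numbered 15, 21 and 17 in the same order, where 8.90%, 8.08% and 9.55% of all tested genes were higher, and Sp100 alone was lower, in LPS+recAAT. DESeq2 called 9, 8 and 10 of the 42, all higher, where it called 4.74%, 3.30% and 4.72% of its tested genes higher. Those it added to edgeR's were Cmpk2, Irf7, Oas1a and Oas3 in LPS+nAAT, Herc6 and Mx1 in LPS+oxAAT, and Ifit2, Herc6 and Mx2 in LPS+recAAT. These comparisons share their air mice with each other and with LPS vs air, so they do not repeat each other independently. Median log2 fold changes of the 42 were 0.27, 0.33 and 0.27, each beside a median of all tested genes between -0.02 and 0. Without mouse 4104 the LPS+nAAT median was 0.17, without mouse 5105 the LPS+oxAAT median was 0.24, and with the set fitted the LPS+recAAT median was 0.15.

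The sets bear on these calls unequally. When the model also fitted the set, Isg15 stayed called in LPS vs air (1.09, adjusted p = 0.0172), and LPS+nAAT vs air, whose libraries all lie in the first set, lost Zbp1 (adjusted p = 0.0501) and gained Cmpk2 (adjusted p = 0.0391) beside 4 calls that stayed. In LPS+oxAAT and LPS+recAAT vs air, no gene of the 42 was called with that term, although the fold changes of the genes called without it kept their sign. Isg15, for example, was 1.11 (adjusted p = 0.0828) and 1.13 (adjusted p = 0.201) higher on the log2 scale. Within the first set alone, which leaves 2 LPS+oxAAT mice, the calls were Ifit1, Isg15 and Mx1 in LPS vs air and Mx1 alone in LPS+oxAAT vs air. Without mice 4104 and 5105, LPS+oxAAT vs air had the same 6 calls. LPS+nAAT vs air again had 5, of which Isg15, Ifit1 and Ifit3 were shared, while Zbp1 and Lgals3bp were not called and Cmpk2 and Oas3 were.

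**Figure D2:**
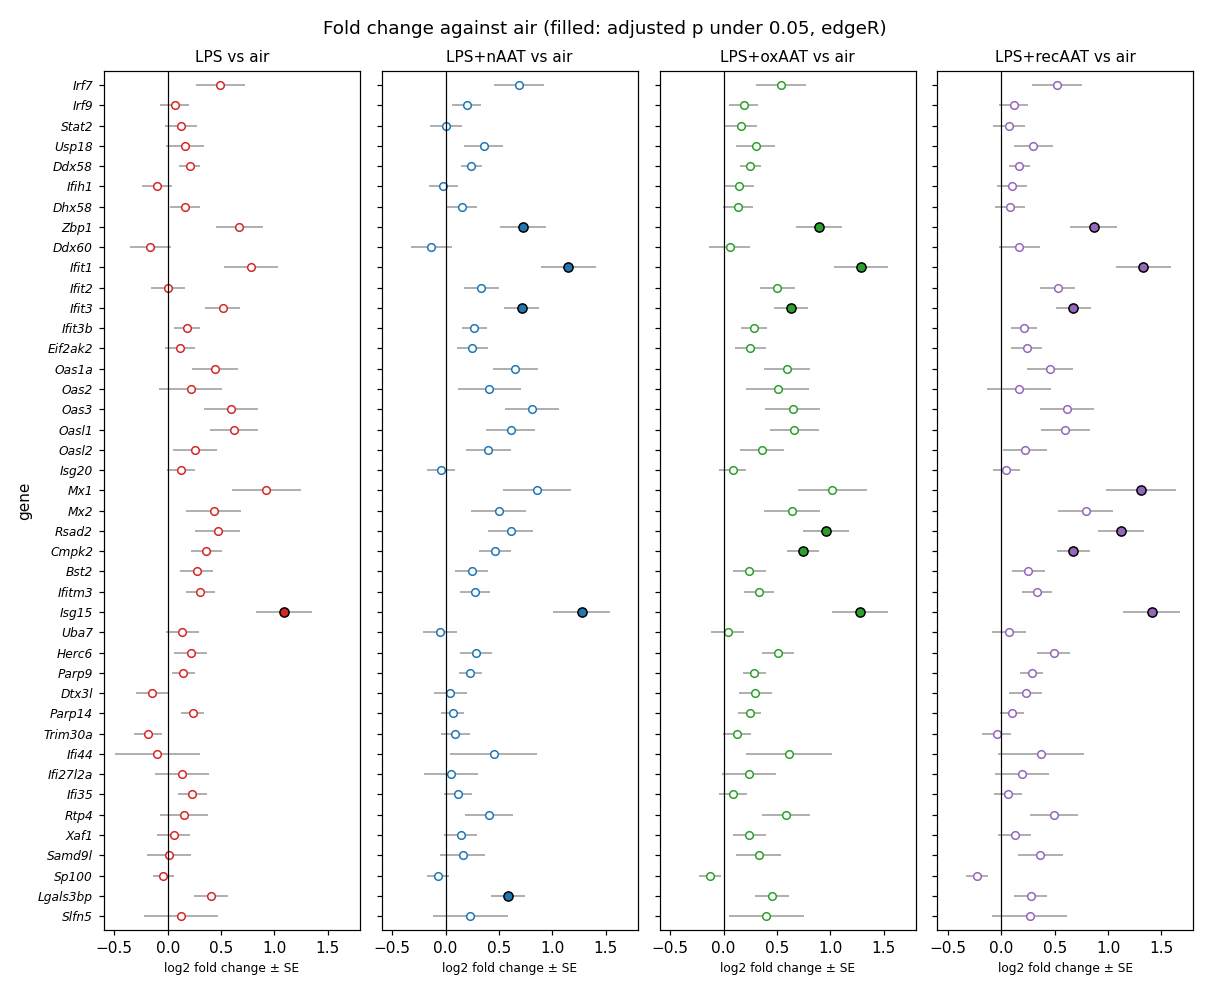
Log2 fold change ± SE against the 3 air mice for each of the 42 genes (rows, ordered by role) in the 4 groups that breathed LPS, with filled points for an adjusted p under 0.05 in edgeR. Isg15 is filled in all 4 panels, and Ifit1, Ifit3 and Zbp1 in the 3 panels with AAT.

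Of the 7 genes around the Isg15 system and ADP-ribose, Isg15 itself (ENSMUSG00000035692, chr4:156199424-156200818, minus strand) moved most. It encodes the ubiquitin-like modifier. Its CPM was 6.10, 8.56 and 9.56 in the air mice and 17.1, 21.5, 18.1, 15.9 and 13.5 in the LPS mice. It was 16.5, 17.2, 12.99, 33.4 and 18.1 in LPS+nAAT, 15.000, 19.8, 17.7, 16.5 and 28.95 in LPS+oxAAT and 21.9, 17.2, 19.9, 17.4 and 30.2 in LPS+recAAT. Every LPS-exposed mouse was above every air mouse. The fold changes against air were 2.13-fold for LPS (adjusted p = 0.0169), 2.42-fold for LPS+nAAT (adjusted p = 0.00318), 2.43-fold for LPS+oxAAT (adjusted p = 0.00432) and 2.65-fold for LPS+recAAT (adjusted p = 0.00121). The call in LPS vs air was lost without air mouse 2101 (adjusted p = 0.109) and without air mouse 2102. The other 6 genes of this group were not called in any comparison by edgeR: Uba7, the enzyme that activates Isg15, Herc6, the mouse ligase that attaches it, the partners Parp9 and Dtx3l, Parp14 and the ubiquitin ligase Trim30a. Herc6 had the largest differences of these against air, 0.51 ± 0.15 in LPS+oxAAT (adjusted p = 0.0656) and 0.49 ± 0.15 in LPS+recAAT (adjusted p = 0.0535). DESeq2 called Herc6 in both of these comparisons (adjusted p = 0.0285 and 0.0301), and Dtx3l in LPS+oxAAT vs LPS (adjusted p = 0.0254). Parp9 and Dtx3l share 458 bases of exon on opposite strands. Reads within those bases can be assigned to either gene only if the counting used the strand, which is not given in the sources used here. Herc6 shares 1269 bases of exon with the gene Gm45193 on the same strand, where the strand cannot separate them, so its level is uncertain.

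Among the 11 genes whose products bind RNA or stop translation, Ifit1 and Ifit3 were called in all 3 AAT groups against air. Ifit1 (ENSMUSG00000034459, chr19:34640871-34650009, plus strand) encodes a protein that binds viral RNA lacking the normal cap methylation. Its CPM was 12.8, 18.2 and 13.3 in air, 19.6, 25.9, 31.3, 25.8 and 24.6 in LPS and 27.1, 27.2, 27.3, 52.3 and 30.4 in LPS+nAAT. The LPS+oxAAT mice had 27.6, 30.1, 33.6, 28.1 and 61.04 and the LPS+recAAT mice 38.5, 37.7, 38.1, 26.7 and 44.02. The lowest LPS-exposed mouse (19.6) was above the highest air mouse (18.2). Mean CPM was 14.8 ± 3.02 in air and 25.4 ± 4.16 in LPS, a log2 difference of 0.78 ± 0.25 that did not pass (adjusted p = 0.0809). It rose 2.22-fold in LPS+nAAT (adjusted p = 0.00574), 2.44-fold in LPS+oxAAT (adjusted p = 0.00291) and 2.51-fold in LPS+recAAT (adjusted p = 0.00144).

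Ifit3 (ENSMUSG00000074896, chr19:34583531-34588731, plus strand) encodes a relative of Ifit1. Its CPM was 48.8, 54.8 and 51.3 in air, 75.8, 79.2, 74.4, 74.9 and 64.5 in LPS and 68.4, 83.6, 72.6, 117 and 81.6 in LPS+nAAT. It was 63.6, 79.3, 76.9, 70.2 and 109.9 in LPS+oxAAT and 78.2, 80.3, 86.2, 66.4 and 100.2 in LPS+recAAT. No LPS-exposed mouse overlapped the air mice. The rise was 1.64-fold in LPS+nAAT (adjusted p = 0.00654), 1.55-fold in LPS+oxAAT (adjusted p = 0.0235) and 1.59-fold in LPS+recAAT (adjusted p = 0.00943), beside 1.43-fold in LPS (adjusted p = 0.0696). The LPS+oxAAT call was lost without any 1 of the 3 air mice or mouse 5105, and the LPS+recAAT call without air mouse 2101. With only the groups compared, the LPS+oxAAT call was also lost (adjusted p = 0.0572). The neighbouring copy Ifit3b is a limit here. The longest open reading frames of Ifit3 and Ifit3b are identical at 1201 of 1212 bases (99.1%), and 51.2% of the 50-base words of Ifit3 also occur in Ifit3b, so a split of reads between these genes is uncertain. Ifit3b itself was not called, with 0.18 ± 0.12 in LPS vs air and a mean CPM of 32.3 ± 1.02 in air and 36.6 ± 3.44 in LPS.

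Ifit2 (ENSMUSG00000045932, chr19:34550694-34576419, plus strand), a relative of Ifit1 and Ifit3, was as high in air as in LPS. Its CPM was 36.7, 39.7 and 42.1 in air and 36.5, 29.6, 48.3, 39.2 and 43.8 in LPS, with a log2 difference of 0.00 ± 0.16. In LPS+nAAT it was 41.2, 46.6, 48.7, 58.6 and 53.7, in LPS+oxAAT 42.9, 42.1, 69.6, 54.7 and 70.6 and in LPS+recAAT 51.6, 61.1, 63.2, 49.5 and 59.2. Air and LPS mice overlapped fully, and every LPS+recAAT mouse was above every air and LPS mouse. Within LPS+oxAAT, the 2 first-set mice (42.9 and 42.1) lay within the LPS range of 29.6 to 48.3 and the 3 second-set mice (54.7 to 70.6) lay above it. Its calls against LPS are given with the AAT comparisons, and DESeq2 alone called it against air, in LPS+recAAT (adjusted p = 0.0294).

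The oligoadenylate synthetases make the messenger that activates RNase L. Oas1a CPM was 7.07, 11.2 and 9.37 in air, 13.2, 14.6, 11.2, 12.2 and 11.6 in LPS and 12.7, 12.3, 10.7, 20.4 and 16.7 in LPS+nAAT. In LPS+oxAAT it was 12.2, 13.3, 12.1, 10.7 and 21.5, and in LPS+recAAT 13.7, 10.9, 12.7, 10.5 and 15.3. In these data 1 mouse in LPS+nAAT and 1 in LPS+oxAAT, again 4104 and 5105, were at 20.4 and 21.5, and the other LPS-exposed mice lay between 10.5 and 16.7. Of the 50-base words of Oas1a, 57.6% also occur in Oas1g, so its level is uncertain. For Oas3 the values were 4.62, 6.19 and 3.55 CPM in air, 6.48, 7.01, 7.66, 9.07 and 6.01 in LPS and 7.45, 11.1, 6.41, 10.4 and 6.61 in LPS+nAAT. They were 4.92, 7.88, 6.21, 5.69 and 12.8 in LPS+oxAAT and 8.44, 6.64, 7.37, 6.81 and 7.43 in LPS+recAAT, and the lowest LPS-exposed mice overlapped the air mice. For Oasl1, which restrains Irf7 translation, the values were 4.37, 5.12 and 3.86 CPM in air, 8.02, 7.36, 5.78, 7.60 and 5.51 in LPS and 8.51, 7.75, 4.07, 7.56 and 6.03 in LPS+nAAT. They were 5.60, 9.06, 5.73, 5.21 and 9.55 in LPS+oxAAT and 7.54, 5.95, 6.11, 6.005 and 7.94 in LPS+recAAT. Only mouse 4103 (4.07) fell within the air range of 3.86 to 5.12. None of these 3 genes was called by edgeR, while DESeq2 called Oas1a and Oas3 in LPS+nAAT vs air (adjusted p = 0.0363 and 0.0250). Neither tool called Oas2, Oasl2, Isg20, which degrades RNA, or Eif2ak2, the kinase PKR that stops translation, whose log2 differences in LPS vs air ran from 0.12 to 0.26.

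Of the 6 genes whose products act at membranes or on virus entry and release, the neighbours Rsad2 (ENSMUSG00000020641, chr12:26442746-26456452, minus strand) and Cmpk2 (ENSMUSG00000020638, chr12:26469204-26479837, plus strand) were called against air in LPS+oxAAT and LPS+recAAT. Rsad2 encodes viperin, which makes a chain-terminating nucleotide, and Cmpk2 encodes a kinase that supplies its substrate. Rsad2 CPM was 10.5, 7.52 and 5.10 in air, 8.37, 10.6, 11.4, 12.2 and 10.7 in LPS and 10.9, 10.2, 8.76, 15.97 and 13.1 in LPS+nAAT. The LPS+oxAAT mice had 10.9, 13.7, 20.1, 13.3 and 16.9 and the LPS+recAAT mice 16.7, 16.02, 16.5, 14.03 and 20.3. Air mouse 2101 (10.5) lay inside the LPS and LPS+nAAT ranges and below all LPS+oxAAT and LPS+recAAT mice. Rsad2 rose 1.94-fold in LPS+oxAAT (adjusted p = 0.00790) and 2.18-fold in LPS+recAAT (adjusted p = 0.00128). The first of these calls was lost without air mouse 2105 and with only the groups compared (adjusted p = 0.0624).

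Cmpk2 CPM was 17.03, 19.4 and 18.1 in air, 25.9, 22.3, 26.1, 21.9 and 20.5 in LPS and 21.96, 24.5, 25.3, 31.1 and 22.5 in LPS+nAAT. It was 25.4, 25.3, 29.8, 27.3 and 44.4 in LPS+oxAAT and 31.3, 28.2, 29.3, 26.5 and 29.4 in LPS+recAAT. All 20 LPS-exposed mice were above the air mice. It rose 1.67-fold in LPS+oxAAT (adjusted p = 0.00312) and 1.596-fold in LPS+recAAT (adjusted p = 0.00519). With the set as a term the log2 differences were 0.48 and 0.26 (adjusted p = 0.180 and 0.612). The LPS+oxAAT call was also lost with only the groups compared (adjusted p = 0.0510).

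Mx1 (ENSMUSG00000000386, chr16:97447035-97462907, minus strand) and Mx2 encode GTPases that block virus replication, and many inbred mouse strains carry a defective Mx1 allele. Mx1 CPM was 3.68, 4.57 and 4.12 in air, 7.49, 9.06, 5.67, 9.03 and 7.998 in LPS and 8.30, 9.19, 4.86, 9.08 and 5.90 in LPS+nAAT. In LPS+oxAAT it was 8.24, 11.7, 9.39, 4.46 and 7.91, and in LPS+recAAT 18.5, 7.16, 6.998, 6.005 and 11.7. The LPS and LPS+recAAT mice did not overlap the air mice, while mouse 5104 (4.46) did. Its call was in LPS+recAAT, 2.47-fold (adjusted p = 0.0125), and was lost without air mouse 2101 or 2105. Mx2 CPM was 5.34, 6.65 and 5.97 in air, 7.04, 9.21, 7.75, 9.45 and 7.04 in LPS and 9.69, 9.73, 4.82, 11.7 and 6.35 in LPS+nAAT. The LPS+oxAAT mice had 9.64, 10.6, 7.84, 6.17 and 12.5 and the LPS+recAAT mice 15.9, 8.18, 8.02, 8.57 and 10.8. Mx2 was not called by edgeR and was by DESeq2 in LPS+recAAT vs air (adjusted p = 0.0304), and its highest library was mouse 6101, as for Mx1. Ifitm3, which traps viruses in endosomes, was the most abundant of the 42 per length. Its CPM was 183, 225 and 256 in air, 305, 305, 277, 239.9 and 241 in LPS and 237, 251.1, 243, 340.4 and 265 in LPS+nAAT. It was 249, 296, 241, 268 and 339.5 in LPS+oxAAT and 292, 228, 264, 283 and 322 in LPS+recAAT. Air and LPS overlapped, and neither Ifitm3 nor Bst2, the tetherin that holds virus at the surface, was called.

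Of the 5 sensors, Zbp1 (ENSMUSG00000027514, chr2:173206612-173218923, minus strand), a detector of Z-form nucleic acid, was called in the 3 AAT groups against air. Zbp1 CPM was 8.62, 9.44 and 7.14 in air, 14.8, 13.4, 12.3, 13.7 and 12.8 in LPS and 12.1, 15.3, 8.30, 21.003 and 12.96 in LPS+nAAT. In LPS+oxAAT it was 14.8, 16.7, 14.3, 11.9 and 20.3, and in LPS+recAAT 17.4, 10.6, 16.7, 13.9 and 17.8. Only mouse 4103 (8.30) lay within the air range. The rises were 1.65-fold (adjusted p = 0.0467), 1.86-fold (adjusted p = 0.0153) and 1.82-fold (adjusted p = 0.0128) for nAAT, oxAAT and recAAT, beside 1.59-fold for LPS (adjusted p = 0.0782). In LPS+nAAT the call was lost with the set as a term, without any 1 of air mice 2101, 2102 and 2105 or LPS+nAAT mice 4102, 4104 and 4105, and without mice 4104 and 5105 together, where the log2 difference was 0.54 (adjusted p = 0.115). It was also lost within the first set alone (adjusted p = 0.0561), with only the groups compared (adjusted p = 0.109) and with a block for the final digit of the mouse number. In LPS+oxAAT and in LPS+recAAT it was lost without air mouse 2101 or 2105. The RNA helicases Ddx58 (RIG-I), Ifih1 (MDA5), Dhx58 (LGP2) and Ddx60 were not called, and their log2 differences in LPS vs air ran from -0.16 in Ddx60 to 0.21 in Ddx58.

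None of the 4 signalling genes was called in LPS vs air or in any other comparison by edgeR; these are Irf7, the factor that amplifies the response, Irf9 and Stat2, the ISGF3 subunits, and Usp18, which removes Isg15 and dampens the receptor. Irf7 CPM was 27.997, 35.2 and 32.6 in air, 39.2, 52.2, 44.9, 50.1 and 38.4 in LPS and 41.01, 52.6, 32.5, 84.3 and 46.8 in LPS+nAAT. The LPS+oxAAT mice had 39.6, 52.95, 36.7, 38.4 and 64.1 and the LPS+recAAT mice 57.3, 38.4, 41.99, 37.7 and 52.9. All LPS mice were above the air mice, and among the others only mouse 4103 (32.5) fell within the air range. Log2 differences against air were 0.49 ± 0.23 in LPS and 0.69 ± 0.23 in LPS+nAAT (adjusted p = 0.261 and 0.0925). DESeq2 called Irf7 in LPS+nAAT vs air (adjusted p = 0.0366). Irf9, Stat2 and Usp18 differed from air by 0.06, 0.13 and 0.16 in LPS.

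Of the 9 other induced genes, Lgals3bp (ENSMUSG00000033880, chr11:118392751-118402092, minus strand), a secreted galectin-binding glycoprotein, was called in LPS+nAAT vs air. Lgals3bp CPM was 119, 128 and 92.5 in air, 139.6, 152, 147, 184 and 129 in LPS and 139, 168, 131, 229 and 183 in LPS+nAAT. It was 142, 139.9, 153, 147 and 195 in LPS+oxAAT and 115, 134, 157, 139 and 141 in LPS+recAAT. LPS, LPS+nAAT and LPS+oxAAT mice were all above the air mice, and mouse 6101 was not. The rise in LPS+nAAT was 1.499-fold (adjusted p = 0.0254), and it did not pass without any 1 of air mice 2101 and 2105 or LPS+nAAT mice 4104 and 4105, nor without mice 4104 and 5105 together (0.45, adjusted p = 0.0530). It also did not pass within the first set alone (adjusted p = 0.0519), with only the groups compared (adjusted p = 0.0783) or with a block for the final digit of the mouse number. Ifi44, Ifi27l2a, Ifi35, Rtp4, Xaf1, Samd9l, Sp100 and Slfn5 were not called in any comparison. Ifi44 ranged from 8.84 to 44.6 CPM between libraries, and Sp100, a nuclear body protein, was the gene with the lowest difference in LPS+recAAT vs air (-0.23 ± 0.10, adjusted p = 0.220).

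**Figure D3:**
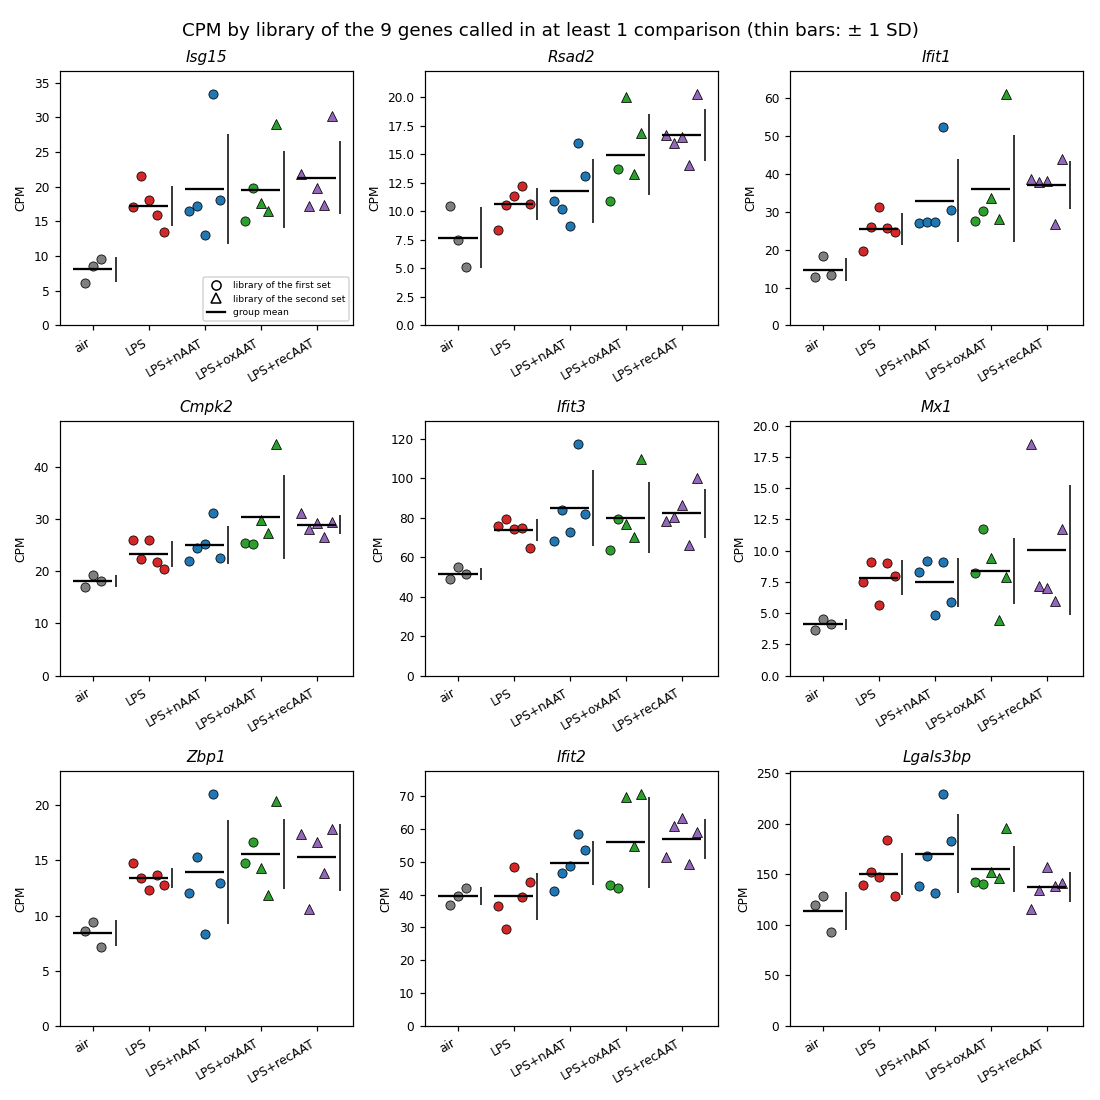
CPM in every library, by group, of the 9 genes called in at least 1 of the 10 comparisons, with circles for the first set, triangles for the second, horizontal lines for group means and thin vertical bars for ± 1 SD. Isg15, Ifit1, Ifit3 and Cmpk2 have no LPS-exposed library within the air range, and Ifit2 overlaps between air and LPS.

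Against LPS alone, edgeR called 0, 1 and 2 of the 42 genes in LPS+nAAT, LPS+oxAAT and LPS+recAAT. At an unadjusted p under 0.05 there were 2, 9 and 7 of the 42, all higher but Sp100 in LPS+recAAT, where 14.7%, 20.2% and 23.7% of all tested genes passed in either direction. DESeq2 called 0, 3 (Cmpk2, Dtx3l and Ifit2) and 2 (Ifit2 and Rsad2), where it called 2.93%, 7.88% and 11.8% of its tested genes. In LPS+nAAT vs LPS, edgeR called 0.595% of all tested genes in either direction, and the 2 members at an unadjusted p under 0.05 were Trim30a (0.28 ± 0.12, adjusted p = 0.256) and Ifit2 (0.33 ± 0.14, adjusted p = 0.272). In LPS+oxAAT vs LPS, Ifit2 rose 1.41-fold, from 39.5 ± 7.11 to 55.98 ± 13.9 CPM (adjusted p = 0.0405). All tested genes were called higher in 3.94% and lower in 0.770% of cases there, so 1 of 42 is below the background. In LPS+recAAT vs LPS, Ifit2 rose 1.44-fold, to 56.9 ± 6.04 CPM (adjusted p = 0.0205), and Rsad2 rose 1.57-fold, from 10.6 ± 1.44 to 16.7 ± 2.27 CPM (adjusted p = 0.0232). Every LPS+recAAT mouse was above every LPS mouse in both genes. The background was 6.47% called higher and 2.02% called lower. None of the 42 was called lower than in LPS in any AAT group.

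These calls changed when the set was fitted. That term rests on the LPS+oxAAT mice, among them the high mouse 5105, and was not fitted without that mouse. With the set as a term, Ifit2 was 0.10 higher in LPS+oxAAT than in LPS (adjusted p = 0.993), and -0.09 in LPS+recAAT vs LPS (adjusted p = 0.953). Rsad2 was 0.22 in LPS+recAAT vs LPS (adjusted p = 0.909). Within the first set alone, Ifit2 was 0.10 in LPS+oxAAT vs LPS (adjusted p = 0.999, with 2 LPS+oxAAT mice). For LPS+recAAT, which lies wholly in the second set, the set and the treatment cannot be told apart against LPS or air other than through the LPS+oxAAT mice. The Ifit2 call in LPS+oxAAT was also lost without mice 4104 and 5105 (0.40, adjusted p = 0.129) and without any 1 of LPS mice 1101, 1102 and 1104 or LPS+oxAAT mice 5103, 5104 and 5105. With only the groups compared it was lost as well (0.51, adjusted p = 0.175). In LPS+recAAT vs LPS, the Ifit2 call was lost without any 1 of mice 1101, 1102, 1104 and 6103 and the Rsad2 call without mouse 1101 or 6105, so leaving out LPS mouse 1101 left none of the 42 called.

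The AAT preparations were compared with each other in 3 pairs. None of the 42 genes was called in any pair by edgeR or DESeq2. All tested genes were called in either direction in 0.344% for LPS+oxAAT vs LPS+nAAT, 1.93% for LPS+recAAT vs LPS+nAAT and 0.0175% for LPS+recAAT vs LPS+oxAAT. DESeq2 called 1.29%, 2.97% and 0.0471% of its tested genes in the same order. At an unadjusted p under 0.05 there were 1, 2 and 0 of the 42, against 11.8%, 14.9% and 2.90% of all tested genes. These were Cmpk2 in LPS+oxAAT vs LPS+nAAT (0.28 ± 0.13, adjusted p = 0.379), and Rsad2 (0.51 ± 0.18, adjusted p = 0.150) and Lgals3bp (-0.31 ± 0.13, adjusted p = 0.267) in LPS+recAAT vs LPS+nAAT. The SE of a log2 difference between AAT groups had a median of 0.14 over the 42 genes and reached 0.34, so a missing call does not show that the preparations act alike. Of the genes that edgeR called against air after AAT, Rsad2 was the only one it also called against LPS, in LPS+recAAT.

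Mice 4104 and 5105 differed from the rest of their groups across most of the 42 genes. Mouse 4104 was the highest of the LPS+nAAT mice in 34 of 42 genes, against 23.97% of all tested genes, and mouse 5105 the highest of the LPS+oxAAT mice in 33 of 42, against 18.8%. The median ratio to the mean of the other 4 mice was 1.31 and 1.38. Ifi44 was the furthest in both, at 42.1 CPM against 10.6 to 21.996 in the other LPS+nAAT mice, and 44.6 CPM against 16.1 to 22.2 in the other LPS+oxAAT mice. Irf7 in mouse 4104 was 84.3 CPM against 32.5 to 52.6, and Oas2 in mouse 5105 was 23.9 CPM against 8.87 to 15.3. Uba7 was the lowest in ratio in both, at 0.92 and 0.91. The median SD of log2 CPM over the 42 genes was 0.26 in LPS+nAAT and 0.29 in LPS+oxAAT, against 0.17 to 0.20 in the other groups. It was 0.18 and 0.19 without these mice. They were chosen as the high ones in these genes, so this fall follows from the choice. In LPS+recAAT, mouse 6101 was the highest in 21 of 42 genes, against 26.01% of all tested genes.

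Cell type markers in these mice were as follows. Summed CPM of 9 alveolar macrophage markers was 1214 in mouse 4104, against 901 to 1037 in the other LPS+nAAT mice, and 848 in mouse 5105, against 685 to 905. For 7 plasmacytoid dendritic cell markers, a cell type known for making type I interferon, the sums were 143 (others 132 to 165) and 176 (others 138 to 228), and none of the 7 was at 0 throughout. Neutrophil markers summed to 350 (others 238 to 686) and 167 (others 178 to 263). Of the other lists, mouse 4104 stood above its group in heart muscle (456, others 33.3 to 157.6), NK cell (54.9, others 37.01 to 47.1), conventional dendritic (46.1, others 43.2 to 45.3) and club and ciliated cell markers (41317, others 24962 to 38885), and below it in B cell markers (87.1, others 106.5 to 135.5). Mouse 5105 stood below its group in B cell (74.9, others 111.7 to 239), T cell (37.4, others 41.2 to 72.6) and NK cell markers (33.7, others 37.6 to 44.9). Across groups, the macrophage sum was 586 to 657 in air, 726 to 919 in LPS, 901 to 1214 in LPS+nAAT, 685 to 905 in LPS+oxAAT and 532 to 921 in LPS+recAAT, and 2 of its 9 markers were called higher and 1 lower in LPS vs air. Against air, 5 were higher and 0 lower in LPS+nAAT, 2 higher and 0 lower in LPS+oxAAT, and 2 higher and 2 lower in LPS+recAAT. The part of cell composition in the 42 genes was not tested.

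**Figure D4:**
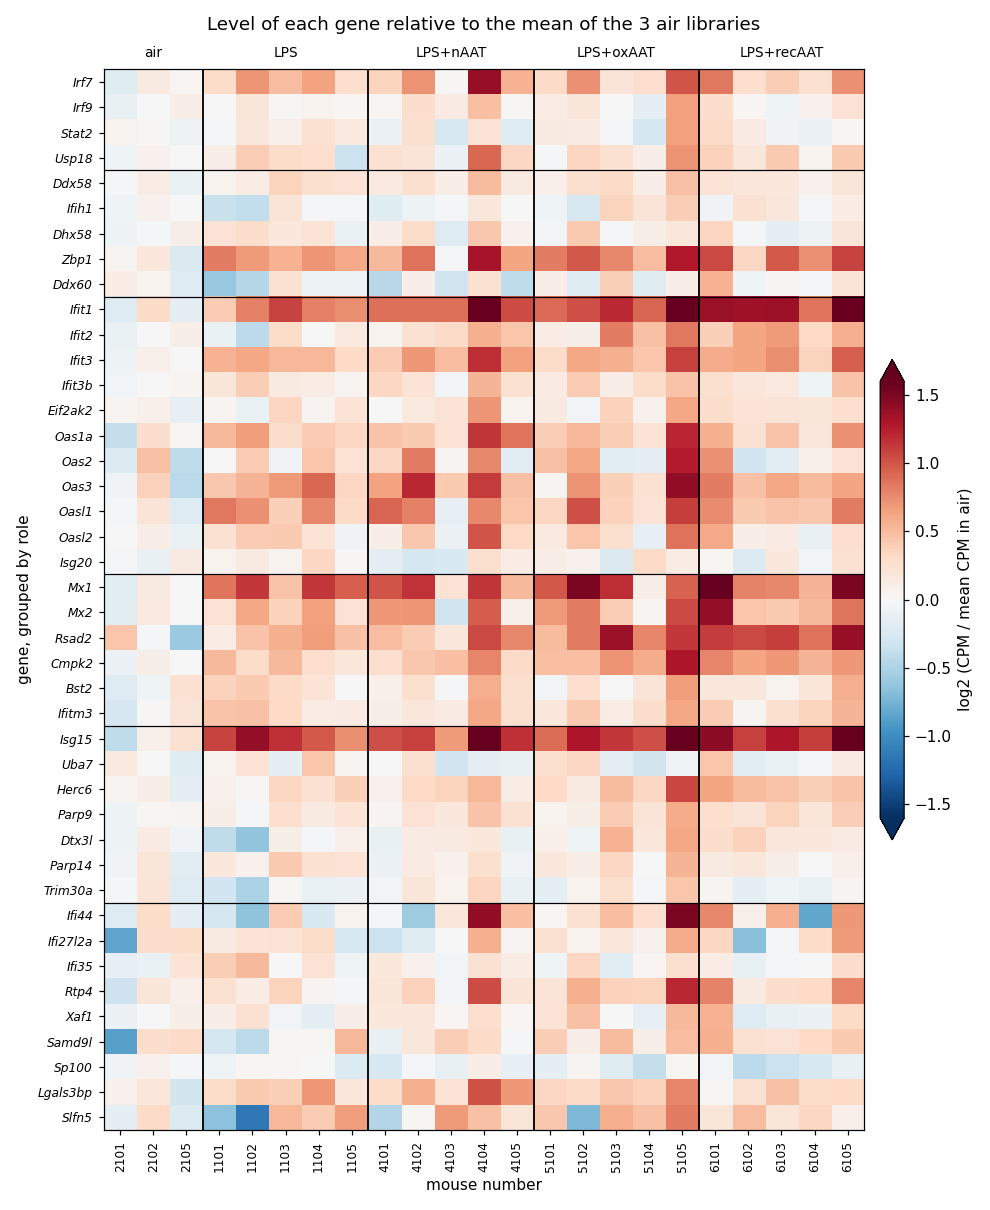
Log2 ratio of CPM in each of the 23 libraries (columns, mouse numbers) to the mean of the 3 air libraries, for the 42 genes (rows, grouped by role), with red above and blue below the air mean. The columns of mice 4104 and 5105 are red in most rows, and the rows of Isg15, Ifit1 and Mx1 are red in most LPS-exposed libraries.

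Upstream of these genes, transcripts of the interferons were at or near 0. Of 14 interferon genes listed, none passed the filter, and 9 had no count in any library, which allows up to 0.0627 to 0.203 CPM per library (3 counts, counting error only). Ifnb1 was seen in 1 air mouse at 0.0324 CPM, and Ifng was the highest at 0.400 CPM. None of 10 receptor and kinase genes was called in any comparison by edgeR. In air and LPS, Ifnar1 was at 110.1 ± 4.13 and 104 ± 8.74 CPM, Ifnar2 at 45.5 and 50.5 and Tyk2 at 68.4 and 76.7 CPM. In LPS vs air, 2.71% of all tested genes were called higher. Of 17 measured genes that carry the signal from Tlr4 and the nucleic acid sensors, 3 rose there. These were Cd14, the LPS co-receptor (2.23 ± 0.16, adjusted p = 1.18e-09), Ikbke, a kinase of Irf3 and Irf7 (0.67 ± 0.16, adjusted p = 0.0136), and the adaptor Myd88 (0.31 ± 0.09, adjusted p = 0.0392). Tlr7, a sensor of single-stranded RNA, was the only one called in LPS+nAAT vs LPS (0.52 ± 0.12, adjusted p = 0.0386). Against air, Cd14 and Tlr7 were called higher in every AAT group, and the adaptor Mavs lower in LPS+recAAT. With the set as a term, Tlr7 stayed called against air only in LPS+nAAT, and Mavs was not called. In LPS+recAAT vs LPS+nAAT, Cd14 was called higher and Tlr7 lower, and neither with the set as a term. The adaptors Ticam1 and Mavs were called lower in LPS+recAAT than in LPS, by -0.32 ± 0.09 and -0.26 ± 0.07 (adjusted p = 0.0303 and 0.0266). With the set as a term neither was called, with Ticam1 at -0.46 (adjusted p = 0.600) and Mavs at -0.07 (adjusted p = 0.925). Without mice 4104 and 5105, Tlr7 was 0.42 higher in LPS+nAAT than in LPS (adjusted p = 0.141). None of 8 feedback genes such as Socs1 and Socs3 was called in any comparison.

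Beyond the 42, another 40 interferon stimulated genes gave few calls as well. In LPS vs air, 2 of 40 rose and none fell, Cxcl10 and the immunoproteasome subunit Psmb8 (0.51 ± 0.13, adjusted p = 0.0195). Of all tested genes, 2.71% were called higher there and 1.68% lower. Cxcl10, a chemokine for activated T cells that also answers to NF-kB and interferon gamma, went from 1.33 ± 0.0585 CPM in air to 4.92 ± 0.684 in LPS (1.88 ± 0.23, adjusted p = 6.78e-06). It rose in all 4 comparisons with air, and was higher in LPS+recAAT than in LPS+nAAT (0.84 ± 0.17, adjusted p = 0.0135). With the set as a term the rises against air all passed, from 1.58 in LPS+nAAT to 2.39 in LPS+recAAT, and the difference between LPS+recAAT and LPS+nAAT did not (0.81, adjusted p = 0.324). Ifi203, a DNA sensor of the p200 family, was called in LPS+oxAAT vs LPS (0.47 ± 0.13, adjusted p = 0.0309), and not with the set as a term (0.49, adjusted p = 0.492). The median log2 difference of the 40 genes in LPS vs air was 0.09, beside 0.19 for the 42.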

How the data were processed

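Poly(A) RNA from whole lung was sequenced as stranded libraries, 1 per mouse, per the labels' protocols. The deposited values are raw counts per Ensembl gene, with no normalization by the authors. The submitters' processing notes name GRCm38, the aligner STAR 2.4.0.1 and the counter HTSeq 0.11.1, besides Trimmomatic (0.36 and 0.38) and FastQC 0.11.8. For the strand setting and the annotation, the sources used here give nothing. The 5 summary lines were left out: reads on no feature were 6.79% to 13.1% of reads tallied. Symbols came from GENCODE mouse release 21.

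All 23 libraries were fitted together with edgeR 4.0.16 (R 4.3.3): TMM, filterByExpr by group, a robust quasi-likelihood F test, two-sided, with Benjamini-Hochberg adjustment over 17148 genes in each of 10 comparisons and calls at an adjusted p under 0.05. The SE was derived from the fold change and F. The fit was run on simulated counts with no set difference. The changes planted in the LPS group were larger than those of most of the 42 genes. That run therefore cannot speak to the effect of the sets or to small changes. CPM values are TMM-scaled. P-values weigh a group difference against the spread between mice. Where the libraries compared come from both sets and the set is not fitted, the P-values also carry any difference between the sets. Alternatives used DESeq2 1.42.0, other filters, the set, a block and leave-one-out fits. Values in every library are given for genes called in any comparison and for the 6 others with the largest difference between LPS and air. At most 4 called genes per pathway list are named. The 42 genes, the lists and the sets were chosen with earlier results of these data known. Promoters are RefSeq windows (GRCm38.p6), and 25 of 32 windows had their transcribed end in a GENCODE transcript of the same gene.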

Additional observations from a re-analysis of the deposited data

Results flagged for a closer look

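Within groups of 5 mice, 7 of 64 values tested had a single mouse whose distance from its nearest neighbour exceeded Dixon's 95% limit for the group's range, where chance gives about 1 in 20. All 7 were high values in mice 4104 or 5105. In LPS+nAAT, mouse 4104 had 33.4 CPM of Isg15 (others 12.99 to 18.1), 52.3 CPM of Ifit1 (others 27.1 to 30.4) and 340 CPM of Ifitm3 (others 237 to 265). In LPS+oxAAT, mouse 5105 had 61.0 CPM of Ifit1 (others 27.6 to 33.6), 44.4 CPM of Cmpk2 (others 25.3 to 29.8), 195 CPM of Lgals3bp (others 139.9 to 152.6) and 21.5 CPM of Oas1a (others 10.7 to 13.3). The genes are members of a single response and are not independent of each other.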

How the results depend on the processing

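Counts of the 42 genes called (all higher) moved by over 1.5 times in 22 of 94 settings other than single omissions. The 94 include LPS+nAAT vs LPS and the pairs of AAT groups. Those comparisons had no call in any setting and all count as unmoved, so 22 of 94 understates how far the other comparisons moved. In LPS vs air 1 gene became 0 at an adjusted p under 0.01, 3 in the first set alone, 5 with only the groups compared and 5 with DESeq2. In LPS+oxAAT vs LPS 1 became 0 at an adjusted p under 0.01, when the set was fitted, within the first set, with only the groups compared and without both high mice, 2 with a stricter filter and 3 with DESeq2. In LPS+recAAT vs LPS 2 became 0 at an adjusted p under 0.01 and with the set as a term. Against air, 5 in LPS+nAAT became 3 at an adjusted p under 0.01 and 9 with DESeq2; 6 in LPS+oxAAT became 0 when the set was fitted, 1 within the first set and 3 with only the groups compared; 7 in LPS+recAAT became 0 with the set as a term. For Ifit2 the set as a term reversed the sign in LPS+recAAT vs LPS (-0.0892) and in LPS+recAAT vs air (-0.0866). DESeq2 size factors and no filter kept every count within 1.5 times. The causes were not tested. Leaving out both high mice was chosen after seeing the data.

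Leaving out 1 mouse at a time gave 0 (without 2101 or 2102) to 2 calls (without 1105) in LPS vs air, and 0 to 3 in LPS+oxAAT vs LPS and in LPS+recAAT vs LPS. The 0 calls in LPS+oxAAT vs LPS came without 1101, 1102, 1104, 5103, 5104 or 5105, with 2 or 3 without 1103, 1105, 5101 or 5102; in LPS+recAAT vs LPS there was 0 without 1101, 1 without 1102, 1104, 6103 or 6105, and 3 otherwise without 1103 or 1105. Against air it gave 3 (without 2105, 4104 or 4105) to 9 (without 4103) in LPS+nAAT, 3 (without 2105) to 8 (without 5102) in LPS+oxAAT and 4 (without 2101) to 7 in LPS+recAAT. The log2 fold change of Ifit2, LPS vs air, ranged from -0.0803 to 0.0880, and no comparison between AAT groups or of LPS+nAAT with LPS gained a call.

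With a replicate block taken from the final digit of each mouse number, 3 genes were called in LPS vs air, 2 in LPS+oxAAT vs LPS and 3 in LPS+nAAT vs air, and Ifit2 in LPS vs air was -0.0838. Deviations of same-numbered libraries correlated at -0.38 to 0.35 in 42 pairs, and 7 of 23 libraries correlated best with their own number, so the numbers were not taken as pairing. The interferon genes were at or near 0 counts, so differences in them were not detectable at this depth.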
